A study of Mus musculus with 4 samples.

Results

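Lama5 encodes the alpha-5 chain of laminin, a large secreted glycoprotein. The Lama5 transcript was described through the peaks that eIF4A3, an RNA helicase, left on it in mouse embryonic stem cells. The members were chosen by position: every peak on the minus strand of chromosome 2 within the mm9 span of Lama5. This gave 84 of the 30763 peaks of the list, lying between 179911702 and 179943034. The gene was singled out because nearly all of its peaks had a high fold change, so its fold changes and p-values are given as a description with no test.

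The study mapped the RNA bound by eIF4A3 with eCLIP, in which ultraviolet light fixes proteins to RNA and the RNA pulled down with an antibody is sequenced beside an input that skips the pull-down. It held 2 groups of 2 libraries, input and eIF4A3 pull-down, all from the cell line J1 (strain 129S4/SvJae), with no gene altered and no agent beyond irradiation at 400 mJ/cm2 and 254 nm. The replicates were biological per the labels' protocols, but the data used here are 1 peak list, so neither a spread between replicates nor the read depth behind a peak is known. The fold change and p-value of each peak are the authors' own; which libraries they compare, and by what test, is not given in the sources used here.

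As background, a laminin is a cross-shaped trimer of an alpha, a beta and a gamma chain, and the main organiser of basement membranes, the sheets of matrix under epithelia. The alpha chain reaches into both ends of the molecule: its first exons encode the short arm that joins laminins into a network, its middle exons lead into the coiled coil shared with the beta and gamma chains, and its last exons encode the globular domains that bind integrins and dystroglycan. The laminin that carries the alpha-5 chain supports self-renewal of cultured mouse embryonic stem cells. eIF4A3 clamps the RNA at the heart of the exon junction complex, which splicing places on the upstream exon a short, fixed distance before each junction.

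The label was checked against an exon model. Exon models came from GENCODE M21 on GRCm38, so exons were moved by 1 constant shift over the whole gene. The shift was taken from the neighbouring genes within 1 Mb, without Lama5: 10 peak edges there met exon edges exactly at 265295 nt, against 3 at the next best shift. The peaks of Lama5 alone gave the same shift, with 13 edges against 5. At this shift all 84 peaks lay wholly inside the 79 exons of the longest coding Lama5 transcript, and 13 peaks ended exactly at an exon edge. At shifts 50 to 2000 nt away, at most 44 peaks lay inside exons, with a median of 24. No peak of the span was on the plus strand. The nearest other minus-strand peaks were 238526 nt and 432554 nt away, with log2 fold changes of 2.38 and 3.30. Positions may be off by 1, since the list does not say whether it counts from 0 or 1. Moving the exons by 1 nt left 74 or 81 peaks wholly inside.

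The exons that carried the strongest peaks are shown first, with 1 exon from the longest stretch without a peak for contrast. The sequences are those of the GENCODE M21 transcript on the minus strand of GRCm38, read 5′ to 3′, and capitals mark the bases that lay under a peak after the shift. Whether mm9 holds the same bases was not checked. Exon 51 held the peak with the highest fold change, exons 47, 49 and 52 held the 4 peaks at the highest listed −log10 p, and exon 24 held none.
Exon 47, chr2:180186801-180186981: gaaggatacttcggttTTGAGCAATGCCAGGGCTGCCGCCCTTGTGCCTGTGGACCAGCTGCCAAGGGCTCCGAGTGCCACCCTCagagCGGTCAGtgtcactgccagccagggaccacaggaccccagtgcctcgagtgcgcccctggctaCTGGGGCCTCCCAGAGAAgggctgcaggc
Exon 49, chr2:180185814-180185965: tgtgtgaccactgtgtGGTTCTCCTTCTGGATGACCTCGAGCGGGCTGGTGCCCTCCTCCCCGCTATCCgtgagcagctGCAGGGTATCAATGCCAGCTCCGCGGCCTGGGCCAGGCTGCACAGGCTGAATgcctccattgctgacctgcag
Exon 51, chr2:180185329-180185440: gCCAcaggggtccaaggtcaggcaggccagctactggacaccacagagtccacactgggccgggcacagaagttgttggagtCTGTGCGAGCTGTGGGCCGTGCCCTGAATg
Exon 52, chr2:180184401-180184571: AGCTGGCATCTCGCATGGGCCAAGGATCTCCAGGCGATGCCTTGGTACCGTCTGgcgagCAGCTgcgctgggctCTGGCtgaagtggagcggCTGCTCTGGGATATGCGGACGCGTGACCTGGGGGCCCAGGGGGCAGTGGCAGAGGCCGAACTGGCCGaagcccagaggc
Exon 24, chr2:180195555-180195697: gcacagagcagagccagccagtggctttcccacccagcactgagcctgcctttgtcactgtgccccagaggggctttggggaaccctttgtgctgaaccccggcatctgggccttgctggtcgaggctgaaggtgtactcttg
In exon 51 most capitals stand close before the junction, and the last peak stops 1 base short of it, while in exon 52 the capitals begin at the first base. Peaks covered 94 of 181 nt of exon 47, 105 of 152 nt of exon 49, 32 of 112 nt of exon 51 and 131 of 171 nt of exon 52.

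Lama5 peaks had a median log2 fold change of 3.58 (12.0-fold), with quartiles of 3.36 and 3.76 and a range of 2.90 to 4.87. Over all peaks of the list the median was 2.72, with quartiles of 2.37 and 3.14. The stringent threshold, a log2 fold change of at least 3 with p at most 0.001, was passed by 80 of the 84 peaks (95.2%), against 32.3% of all peaks; the gene was chosen for this share, so nothing is read from it. At a log2 fold change of at least 4 with p at most 1e-05, 9 of 84 remained (10.7%), against 3.65% of all peaks. The peaks were also short, with a median width of 13 nt and a widest of 52 nt, against a median of 32 nt over all peaks. Of the 84, 37 were 10 nt or shorter. Short peaks were not particular to Lama5: the matrix genes set beside it below had median widths of 14 nt (Hspg2), 16 nt (Agrn) and 20 nt (Fn1).

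The −log10 p of Lama5 peaks started where most of the list had ended. Their lowest value was 39.4, their median 58.5 and their highest 400, while the list began at 5.01 and had a median of 10.4. Only 3.84% of all peaks reached 39.4, and Lama5 held 7.11% of those that did. On the minus strand of chromosome 2, 97 of 1161 peaks reached it, and 84 of the 97 were on Lama5. Since 39.4 is the lowest value of Lama5 itself, all 84 of its peaks reach it by definition. Nothing is read from these shares. Outside Lama5, the peaks of this strand had a median −log10 p of 8.41 and a highest of 72.6. The 4 peaks at 400, the highest value of the list and shared by 89 peaks, had log2 fold changes of 3.25 to 4.06. The next highest −log10 p of Lama5 was 85.5, and whether 400 is a ceiling is not given in the sources used here. Within Lama5, −log10 p went with width (Spearman rho 0.771 over 84 peaks) and hardly with fold change (rho 0.155). All these points come from 1 transcript and share their libraries and caller.

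**Figure D1:**
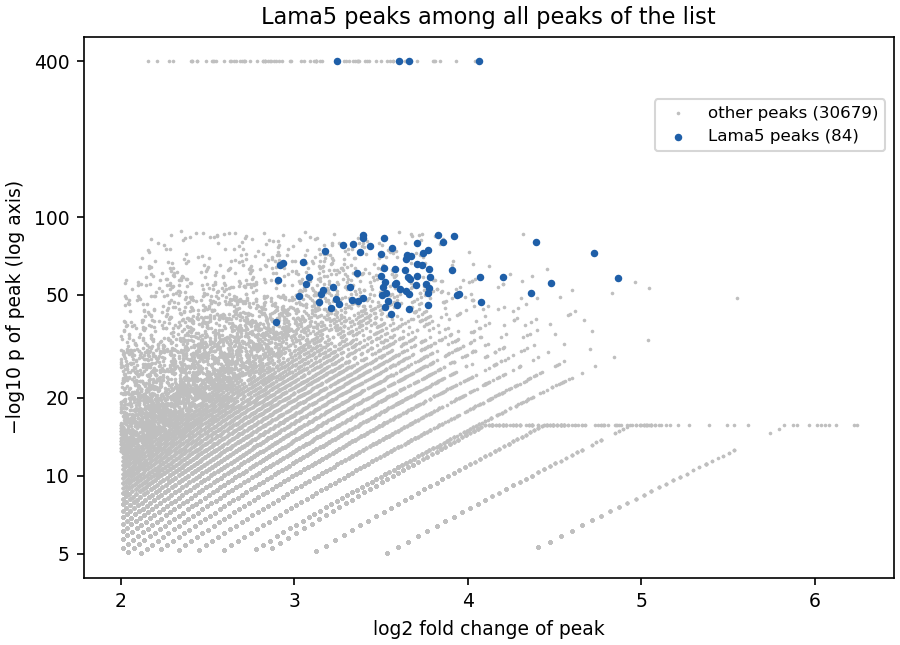
Each point is a peak, by its log2 fold change (x) and −log10 p (y, log axis). The 84 Lama5 peaks (blue) start at a −log10 p of 39.4, above the bulk of the other 30679 peaks (grey), and 4 of them sit at the highest value of 400.

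Along the transcript the peaks fell into 3 stretches separated by long runs of exons without any. In transcript order, exons 3 to 14 held 21 peaks on 9 exons, exons 15 to 33 held none, exons 34 to 64 held 54 peaks on 22 of 31 exons, exons 65 to 72 held none, and exons 73 to 78 held 9 peaks on 5 exons. In all, 36 of the 79 exons (45.6%) carried a peak. Exons 1, 2 and 79 carried none, so no peak lay in the 5′ or the 3′ untranslated region. Merging peaks within 50 nt gave 42 sites, whose median width was 29.5 nt. No site could reach over more than 1 exon, since all peaks lay in exons and the shortest intron was 72 nt. Peaks covered 1422 of the 11388 nt of the transcript (12.5%).

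The stretches had like fold changes. The median log2 fold change was 3.54 in exons 3 to 14, 3.60 in exons 34 to 64 and 3.64 in exons 73 to 78, and fold change showed next to no relation with position in the transcript (rho 0.050 over 84 peaks). The run without peaks from exon 15 to exon 33 covered 2341 nt of spliced RNA, from base 1967 to base 4307, and the run from exon 65 to exon 72 covered 1275 nt. A missing peak means that no peak passed into the list, not that the exon was unbound. In 5 equal parts of the transcript the number of peaks was 21, 2, 24, 28 and 9.

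**Figure D2:**
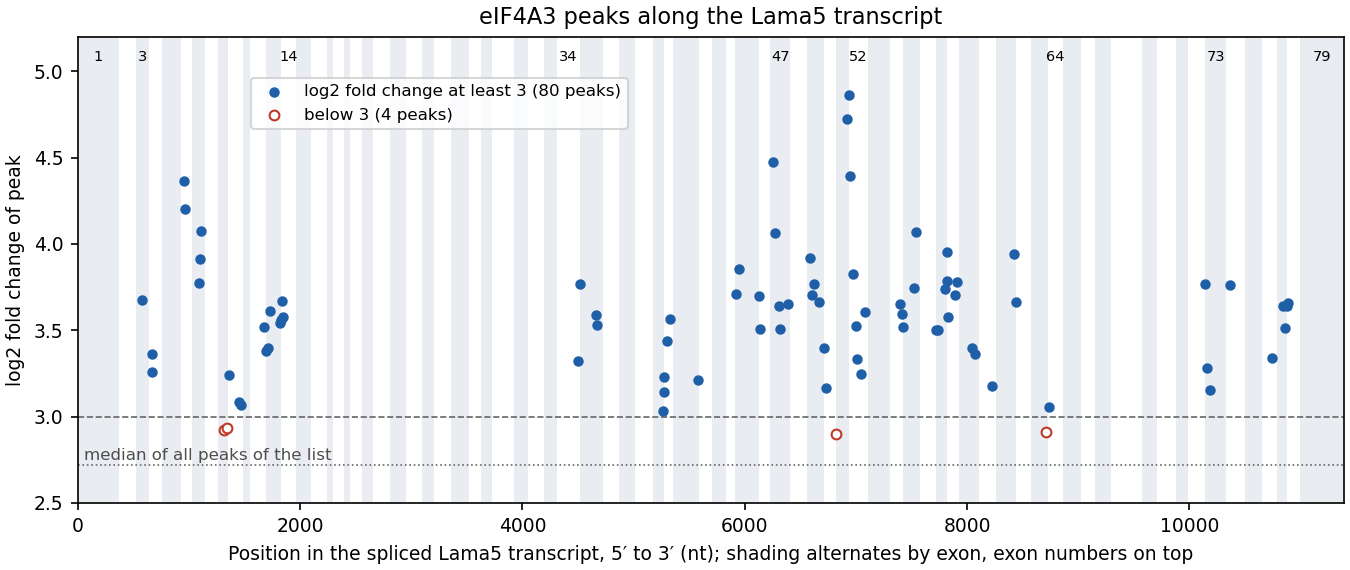
Each point is 1 Lama5 peak, by its position in the spliced transcript in nt (x) and its log2 fold change (y); shading alternates by exon, the dashed line marks a log2 fold change of 3 and the dotted line the median of all peaks, 2.72. Exons 15 to 33 and 65 to 72 are empty, and the 4 open circles are the peaks below 3.

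The first stretch encodes part of the short arm. The first peak of the transcript, in exon 3 from 179943002 to 179943034, had a log2 fold change of 3.67 and a −log10 p of 70.8. Exon 4 followed with peaks of 3.36 and 3.26, exon 6 with 4.36 and 4.20, and exon 7 with 3 peaks from 3.78 to 4.08, which made exons 6 and 7 the highest of this stretch. Exon 9 was the lowest: its adjoining peaks, from 179936685 to 179936706 and from 179936707 to 179936736, had log2 fold changes of 2.93 and 2.92 and were among the 4 short of the threshold. Exon 10 held 3 peaks from 3.07 to 3.24. Exon 12 held 1 peak of 40 nt at 3.52, which ended at the exon's last base. The next exon began with a peak, so peaks stood on both sides of the junction of exons 12 and 13, over an intron of 82 nt. Exon 13 held 5 peaks from 3.38 to 3.61, and exon 14 held peaks of 3.67 and 3.58 from its first base on. Exons 5, 8 and 11, which lie between these, carried none.

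The second stretch was the longest and held the most peaks, though not the most per length: 11.9 peaks per kb of exon, against 14.5 in exons 3 to 14 and 10.5 in exons 73 to 78. Peaks covered 21.0%, 21.4% and 18.3% of these stretches. The second stretch opened with exon 34 with 1 peak at 3.32, exon 35 with 3 peaks from 3.53 to 3.77, exon 39 with peaks of 3.03 and 3.14, exon 40 with 3 peaks from 3.23 to 3.56 over 63 of its 84 nt, and exon 41 with 1 peak at 3.21. Exons 36 to 38 and 42 to 44 carried none. Exons 39 and 40 carried peaks on both sides of their junction, over an intron of 86 nt. Exon 45 held peaks of 3.71 and 3.86, and exon 46 peaks of 3.70 and 3.51. From exon 47 to exon 52 the peaks reached their highest values in both measures.

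In exon 47, a peak of 10 nt from 179921661 to 179921670 had a log2 fold change of 4.48, and the adjoining peak of 41 nt reached 4.06 with a −log10 p of 400. The widest peak of the gene lay in exon 49, from 179920540 to 179920591, with 52 nt, a log2 fold change of 3.66 and a −log10 p of 400. Exon 50 was lower, with peaks of 3.39 and 3.16. High and lower peaks thus stood on neighbouring exons. Exons 48 and 53, on either side of exons 49 to 52, carried none.

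Exon 51 held both ends of the range. Its 1-nt peak at 179920035 had the highest log2 fold change of the gene, 4.87 (29.1-fold), and the adjoining peak of 28 nt, from 179920036 to 179920063, had 4.72. Near its start, a peak of 3 nt from 179920142 to 179920144 had the lowest log2 fold change of the gene, 2.90, and the lowest −log10 p, 39.4. The difference of 1.97 between the highest and lowest peak was the largest within any exon of Lama5. The median difference within an exon was 0.21 over the 25 exons with more than 1 peak. Exon 52 carried the most peaks, 6, with log2 fold changes from 3.25 to 4.39; its first 16 nt held the highest, and the peaks of 37 and 30 nt nearer its 3′ end were both at a −log10 p of 400.

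The rest of the second stretch ran from exon 54 to exon 64. Exon 54 had peaks of 3.65 and 3.59, exon 55 had 3 peaks from 3.52 to 4.07, exon 57 had 4 from 3.50 to 3.95, and exon 58 had 4 from 3.58 to 3.78, while exon 56 had none. After these the exons mostly held single peaks: exon 60 at 3.18, exon 61 at 3.94, exon 62 at 3.66, exon 63 at 2.91 and exon 64 at 3.05, with 2 peaks of 3.40 and 3.36 on exon 59. The peak of exon 63, from 179915314 to 179915343, was the remaining member short of the threshold. It ended at the exon's last base and exon 64 began with a peak, so this junction, over an intron of 165 nt, was the last of the 3 with peaks exactly at both edges. With peaks within 1 nt of both edges, a margin added after seeing the data, there were 8 such junctions.

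The final stretch lay in the exons of the globular domains. Exon 73 held 3 peaks from 3.16 to 3.77, exon 74 held 1 at 3.76, exon 76 held 1 of 48 nt at 3.34, exon 77 held peaks of 3.64 and 3.51, and exon 78 held peaks of 3.64 and 3.66. The last peak of the transcript, from 179911702 to 179911705 in exon 78, had a −log10 p of 50.4. All 9 peaks of this stretch passed the threshold, and none reached a log2 fold change of 4.

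The peaks just above and just below a log2 fold change of 3 had values near it, with none between 2.93 and 3.03. The 4 below had 2.90, 2.91, 2.92 and 2.93, and the 4 next above had 3.03, 3.05, 3.07 and 3.08. The 9 peaks at or above 4 lay on 6 exons: 6, 7, 47, 51, 52 and 55. Many peaks were pieces of a longer covered stretch, since 32 pairs adjoined with no base between them. The log2 fold changes of adjoining peaks differed by a median of 0.13 and by at most 0.57.

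**Figure D3:**
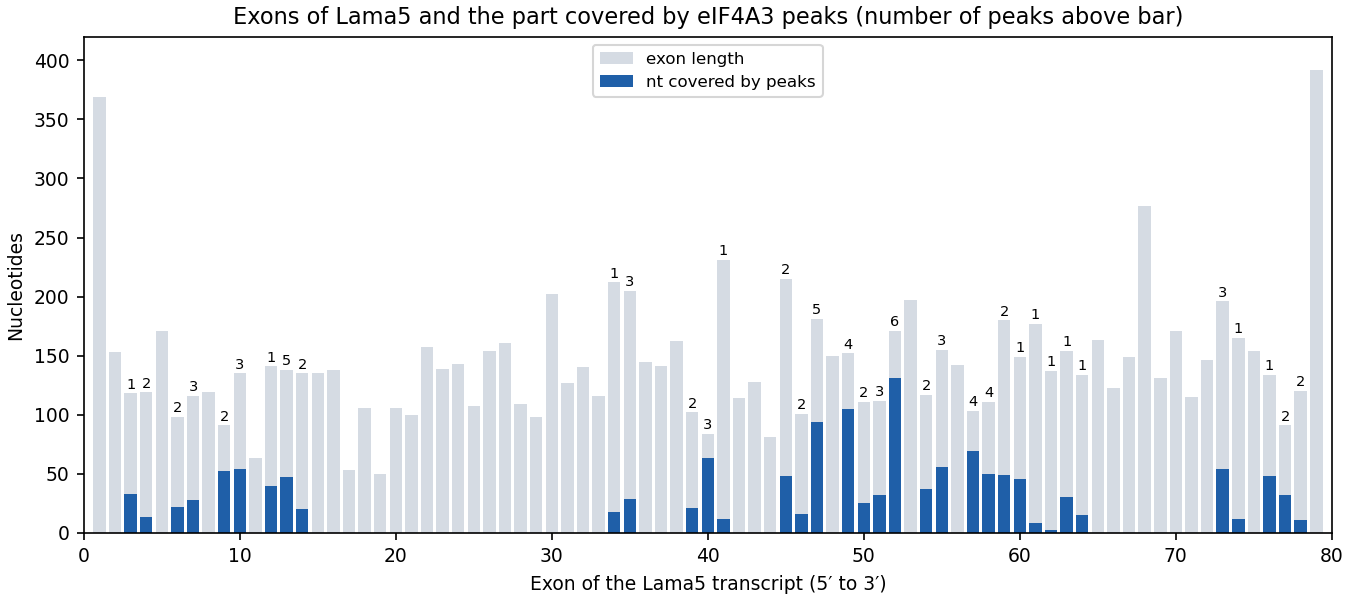
Bars give the length of each of the 79 exons in nt (grey) and the nt covered by peaks (blue), with the number of peaks above the bar. Exon 52 has the most peaks (6) and the most covered nt (131), and exons 15 to 33 have none.

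Exons with and without a peak were of similar size. The 36 internal exons with a peak had a median length of 135 nt (quartiles 112 and 166.5) and the 41 internal exons without had 139 nt (quartiles 114 and 154). The median intron after the exon was 123 nt and 115 nt, and the median GC content 60.8% and 59.3%. Within the exons that carried peaks, the bases under peaks were richer in GC than the rest, at 64.1% of 1422 nt against 59.4% of 3669 nt, and poorer in A, at 16.1% against 20.8%. Neighbouring bases and exons are not independent, so these shares are descriptions.

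Near the 3′ ends of exons, where the exon junction complex is placed, coverage was highest 15 to 35 nt before the junction, among the 4 distance classes used. In the 36 exons with a peak, 43.3% of the bases of this window lay under a peak. The 14 bases next to the junction were covered to 28.0%, those 36 to 60 nt before it to 32.2%, and those farther away to 22.7%. The window held a covered base in 21 exons and was covered in full in 7. The 5′ ends showed a second, narrower rise: the first 14 bases of these exons were covered to 34.9%, and 10 peaks began exactly at the first base of an exon, while 3 ended exactly at the last. Peak midpoints were spread widely, with a median of 69 nt to the 3′ end and quartiles of 29.8 and 113 nt, and 17 of 84 (20.2%) fell in the window.

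**Figure D4:**
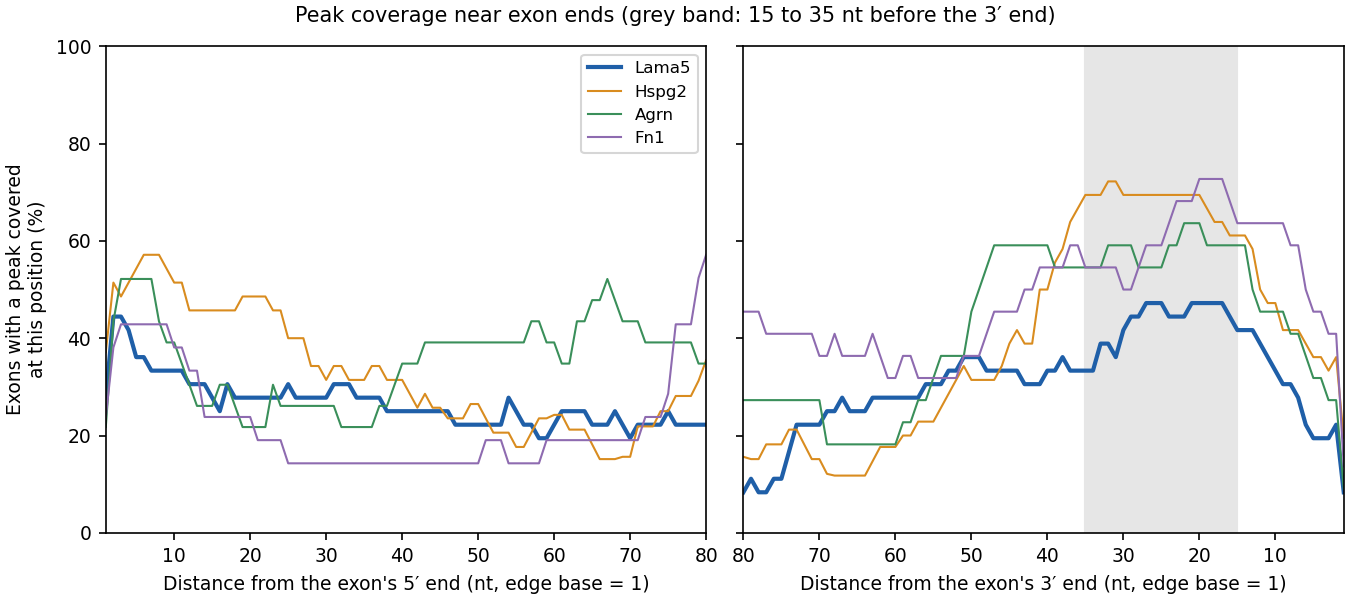
Lines give, for each distance in nt from the 5′ end (left) or the 3′ end (right) of an exon, the percentage of exons with a peak that were covered there, for Lama5 and for the 3 other genes of the list with at least 50 peaks. All 4 are high in the grey band 15 to 35 nt before the 3′ end, with Lama5 the lowest at 43.3% of bases.

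In the other matrix genes with at least 50 peaks the same window was also the most covered of the 4 distance classes, by margins of unlike size. Hspg2, which encodes the heparan sulphate proteoglycan perlecan, had 68.3% of the window covered, Agrn, which encodes the proteoglycan agrin, 58.2%, and Fn1, which encodes fibronectin, 61.7%. The next highest class was the 14 bases at the junction for Hspg2 (42.1%) and Fn1 (52.6%), and 36 to 60 nt before it for Agrn (45.5%). In Agrn the high coverage was not limited to the window, since 59.1% of exons were covered at each base from 40 to 47 nt. Beyond 60 nt the coverage was 25.7% in Hspg2, 23.8% in Agrn and 34.2% in Fn1. At the 5′ ends, the first 14 bases were covered to 50.6% in Hspg2, 40.4% in Agrn and 37.8% in Fn1, against 34.9% in Lama5. In Fn1 the bases more than 60 nt from the 5′ end were covered more, to 48.2%. Hspg2, Agrn and Fn1 were placed by a shift found in the same way from the exon edges around them. Fn1 fell short at 1 Mb and was placed with annotation within 3 Mb, a window chosen after the data were seen.

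The other laminin chains that could be placed had at most 8 peaks each. Of 9 other laminin chain genes, 4 could be placed by the exon edges within 1 Mb of them and the rest were not analysed here. Lamc1, the gamma chain of most laminins, had 8 peaks, none past the threshold, with a median log2 fold change of 2.25 and a −log10 p of 7.21 to 14.5. Lamb2, a beta chain, had 4 peaks, of which 3 passed, with a median of 3.72 and a −log10 p of at most 8.32. Lama3 and Lamc3 had no peak in the list. The 12 peaks all lay in exons, and 3 of the 12 passed the threshold that 32.3% of all peaks passed.

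Among basement membrane genes the numbers were uneven. Of the 13 on the list, 5 were placed within 1 Mb, with 182 peaks in all, every one of them in an exon, and 129 past the threshold that 32.3% of all peaks passed. Hspg2 held 97 of these with 86 past the threshold, and Agrn 63 with 42. Their median log2 fold changes were 3.36 and 3.24, and their lowest −log10 p were 26.9 and 19.2, below the 39.4 of Lama5. Col18a1, a collagen of basement membranes, had 16 peaks with 1 past the threshold and a median of 2.23. Nid1, a linker of laminin and collagen, had 4 peaks with none past it, and Sparc 2 with none. With the window of 3 Mb, 11 genes were placed, with 261 peaks, 260 of them in exons, and 140 past the threshold, again against 32.3% of all peaks. Those added Fn1 with 64 peaks, 8 past the threshold and a median of 2.59, and Nid2 with 13 peaks, 1 past the threshold and a median of 2.22. They also added Col4a1, a collagen IV chain, with 2 peaks, both past the threshold, and a median of 3.62, and Col4a2, Col4a3 and Col4a4 with no peak. Fn1 thus shared with Lama5 a high lowest −log10 p, 31.0, and not the fold changes. Per length of transcript, peaks covered 12.5% of Lama5, 12.3% of Hspg2, 18.6% of Agrn and 18.4% of Fn1.

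Receptors of laminin had few peaks. Of 7 genes, 6 were placed within 1 Mb and held 10 peaks, of which 2 passed the threshold, both on Dag1, the gene of dystroglycan; 32.3% of all peaks passed it. Those 2 did not overlap an exon of its longest coding transcript. Itga3 had 4 peaks, Itga6 2 and Bcam 2, with median log2 fold changes of 2.51, 2.78 and 2.31, and Itga7 and Itgb4 had none. With the window of 3 Mb, Itgb1 was placed as well and had no peak. How much RNA each gene made is not in the list, so these numbers of peaks are not set against RNA levels.

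Lama5 was also set beside the 32 clusters of at least 50 peaks, joined within 10 kb on 1 strand. It had the highest median log2 fold change of the 32, 3.58, the highest share past the threshold, 95.2%, and the highest minimum of −log10 p, 39.4. Lama5 was chosen for its fold changes, so nothing is read from its rank in the median or in the share. Its median −log10 p of 58.5 came after those of the cluster on chromosome 1 from 71672611 to 71699651, 64.3, and of the cluster on chromosome 13 from 6599846 to 6624459, 59.7, whose peaks fitted Pfkp. The cluster on chromosome 1 lay within the span at which Fn1 was placed and had the same lowest −log10 p, 31.0. The clusters nearest in median fold change were on chromosome 5 from 116009553 to 116072041, whose peaks fitted the exons of Gcn1l1, a sensor of stalled translation, and on chromosome 4 from 138936589 to 139017817, which fitted Ubr4, a ubiquitin ligase. Both also had a median of 3.58, with 80.6% and 88.7% past the threshold. Next came Lrp1, an endocytic receptor, on chromosome 10 from 126990771 to 127026711 with 3.45, Hspg2 on chromosome 4 from 137057078 to 137095582 with 3.36, and Vps13d, a lipid transfer protein, on chromosome 4 from 144647422 to 144780417 with 3.29. The median fold change therefore did not set Lama5 apart from Gcn1l1 and Ubr4. Their lowest −log10 p, 11.4 and 18.0, were under 39.4, but were taken over more peaks, 124 and 106 against 84. A lowest value can fall with the number of peaks, and the read depth behind each gene is not known. Nothing is therefore read from the lowest −log10 p. No spread over replicates is known for any of these values, and the differences were not tested.

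**Figure D5:**
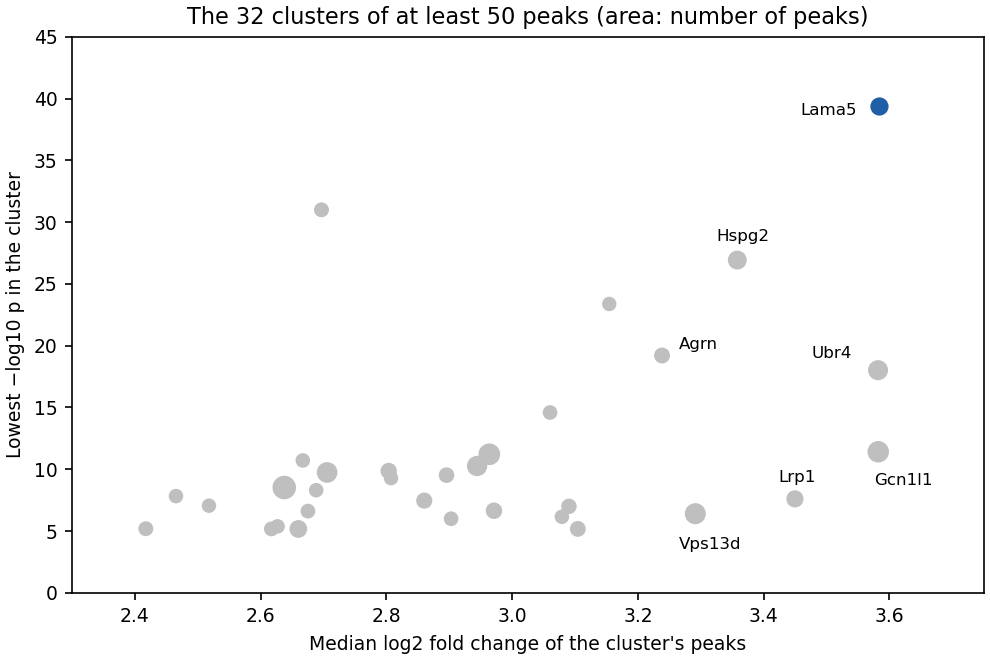
Each circle is 1 of the 32 clusters of at least 50 peaks, by the median log2 fold change of its peaks (x) and its lowest −log10 p (y); the area gives the number of peaks. Lama5 (blue) is at 3.58 and 39.4, with Ubr4 and Gcn1l1 at the same median and 18.0 and 11.4.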

How the data were processed

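Per the submitters' processing notes, cutadapt 1.18, STAR 2.6.1b and build mm9 were used, with no role stated. Reads were paired, of 50 nt, per the labels' protocols. The authors deposited 1 peak list with a log2 fold change and a −log10 p per peak; the caller, test, pooling of replicates and depth were not given in the sources used here. Start and end positions were both taken as part of the peak. Exon models came from GENCODE M21 (GRCm38), moved by the shift at which most peak edges met exon edges within 5 Mb, accepted at 10 or more edges and at least 2 times the next best shift more than 50 nt away. No position in the list was converted. Sites join peaks within 50 nt. Nothing was tested, since 1 list gives no values per library. Lama5, the gene lists and the peaks to name (highest and lowest values, first, last, widest, those short of the threshold) were chosen with earlier results of these data known. A gene of the lists is not reported here. The shift search was tested on simulated data. Python 3.11.15, numpy 2.4.6, pandas 2.3.3, scipy 1.17.1 and matplotlib 3.10.9 were used.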

Additional observations from a re-analysis of the deposited data

How the results depend on the processing

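The 80 peaks past the threshold became 9 at a log2 fold change of at least 4 with p at most 1e-05. They became 76 without the tied −log10 p values, and 39 of 42 when each site counted once by its mean. At a log2 fold change of at least 2 all 84 remained. That outcome was fixed in advance, since no peak of the list had a log2 fold change under 2.00. The p limits removed no peak either, since the lowest −log10 p of the list was 5.01. The median log2 fold change of 3.58 was 3.57 over site means, 3.65 over the highest peak of each site and 3.58 without tied values. The 42 sites became 52 when only adjoining peaks were merged and 44 within 20 nt. The 36 exons with a peak became 31 with an overlap of at least 10 nt and, in a setting added after seeing the data, 34 with peaks past the threshold alone; the shift from Lama5 itself, shifts by 1 nt and the joined coding transcripts gave 36. The median distance of a peak midpoint to the 3′ end of its exon moved with each choice: 69 nt over all peaks, 62.25 nt over sites, 89 nt in exons of at least 100 nt, 76.5 nt for peaks past the threshold and, added after seeing the data, 55.5 nt without peaks of 10 nt or less. The cause was not tested. No paired analysis was possible because the deposited values are 1 per peak and not per library, so no replicate could be left out either. Depth limits every value in a way the list does not show.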

Other observations

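For the cell label, peaks are the sole measure. Of 12 marker genes of embryonic stem cells, 4 were placed within 1 Mb, and 1 of them, Tfcp2l1, a transcription factor of naive pluripotency, had peaks: 15, with a median log2 fold change of 2.46 and 2 past the threshold that 32.3% of all peaks passed. Of 9 markers of other cells, 1 was placed and had no peak. With the window of 3 Mb, 10 of the 12 and 1 of the 9 were placed, and Tfcp2l1 stayed the one with peaks. A gene without a peak is not shown to lack RNA.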
